A study of Mus musculus with 13 samples.

Results

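The genes described here are Trp53, which encodes the transcription factor p53, and 9 genes known as its targets outside the BCL2 family: Mdm2, Cdkn1a, Ccng1, Plk2, Plk3, Perp, Sesn1, Sesn2 and Trp53inp1. They were chosen by name and matched by Ensembl identifier, and all 10 were found among the 17849 genes of the RNA-seq table and passed its filter on low counts. RNA-seq compared sorted CD4+ CD8+ thymocytes, immature T cells that bear both coreceptors and are called double-positive, that were Rad21 KO (2 libraries) or wild type (2 libraries). Rad21 is a subunit of cohesin, the ring-shaped complex that holds DNA loops and sister chromatids. The labels do not say how Rad21 was deleted, nor give the age of the mice or whether each library is a different animal, and p-values here reflect library-to-library spread that may be technical.

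p53 is held at a low protein level by the ubiquitin ligase Mdm2, which p53 itself switches on. When DNA is damaged, p53 is stabilised and induces genes that halt the cell cycle, repair DNA, limit growth or kill the cell, and double-positive thymocytes are known to die readily through p53 after irradiation. Because p53 is controlled largely as a protein, its RNA level and its activity are separate quantities, and only RNA was measured here.

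The libraries held 9384505 and 6914654 counts in Rad21 KO cells and 6633506 and 6500819 counts in wild type cells. Rad21 RNA stood at 67.9 and 65.7 CPM in the Rad21 KO libraries, against 271 and 233 CPM in the wild type libraries (log2 fold change -1.91, SE 0.12, edgeR adjusted p = 0.000862). CPM here means counts relative to the library total after TMM factors, which correct for differences in library composition. The genes Lars2 and Gm15564 together took 34.5% and 12.6% of the counts of the Rad21 KO libraries, against 5.84% and 7.47% of those of the wild type libraries. Markers of the labelled cell type were abundant in all 4 libraries, with Cd8a at 1568 to 1798 CPM in Rad21 KO cells and 2023 to 2234 CPM in wild type cells, while Rag1, Rag2 and Dntt were lower and Ptcra higher in Rad21 KO cells. CPM is not corrected for gene length, so levels are compared between groups for the same gene and not between genes.

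The p53 targets did not move together in Rad21 KO cells. The stress kinases Plk2 and Plk3, the membrane protein gene Perp and the sestrin Sesn2 rose, by 2.14-fold to 5.22-fold, and Trp53inp1 fell. Trp53 itself, its inhibitor Mdm2, the cyclin G1 gene Ccng1 and the sestrin Sesn1 did not pass the threshold, and the p21 gene Cdkn1a was high in only 1 of the 2 Rad21 KO libraries. The count was thus 4 higher, 1 lower and 5 not past the threshold of 10, where calls need a Benjamini-Hochberg adjusted p under 0.05 over all 12003 tested genes in edgeR's quasi-likelihood test. Of all tested genes 12.8% were called, 7.6% higher and 5.17% lower. Leaving out wild type replicate 1 or wild type replicate 2 cut the genes higher to 2, DESeq2 gave 2 and no filter on low counts gave 1 (Plk2), and none was lower without wild type replicate 1, without either Rad21 KO replicate or without the filter. The median log2 fold change was 0.65 over the 10 genes and -0.01 over all tested genes, and without Rad21 KO replicate 2 the median over the 10 genes was 0.16. The 10 genes were picked with earlier results of these data known, so this share is a description with no test. In RNA from sorted cells in bulk, a change in the share of cells that express a gene and a change in RNA per cell cannot be told apart.

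**Figure D1:**
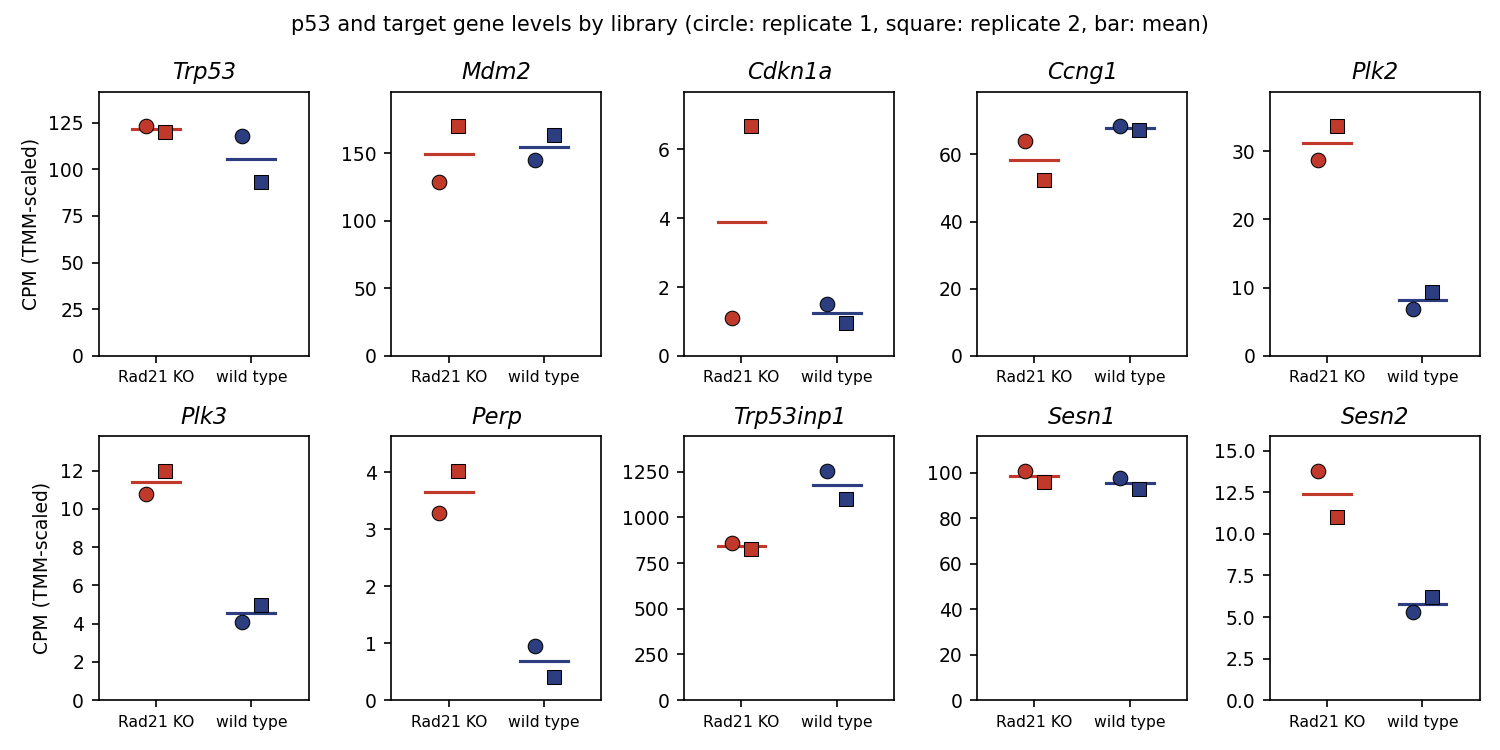
Level of each gene in each library, as TMM-scaled CPM on a linear axis that starts at 0, with Rad21 KO in red on the left and wild type in blue on the right. Circles are replicate 1, squares replicate 2 and bars the mean of 2 libraries. The groups do not overlap for Plk2, Plk3, Perp, Sesn2, Trp53inp1, Trp53 and Ccng1, as for 58.9% of all tested genes. For Cdkn1a, 1 Rad21 KO library stands at 6.67 CPM beside 1.10 CPM in the other.

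**Figure D2:**
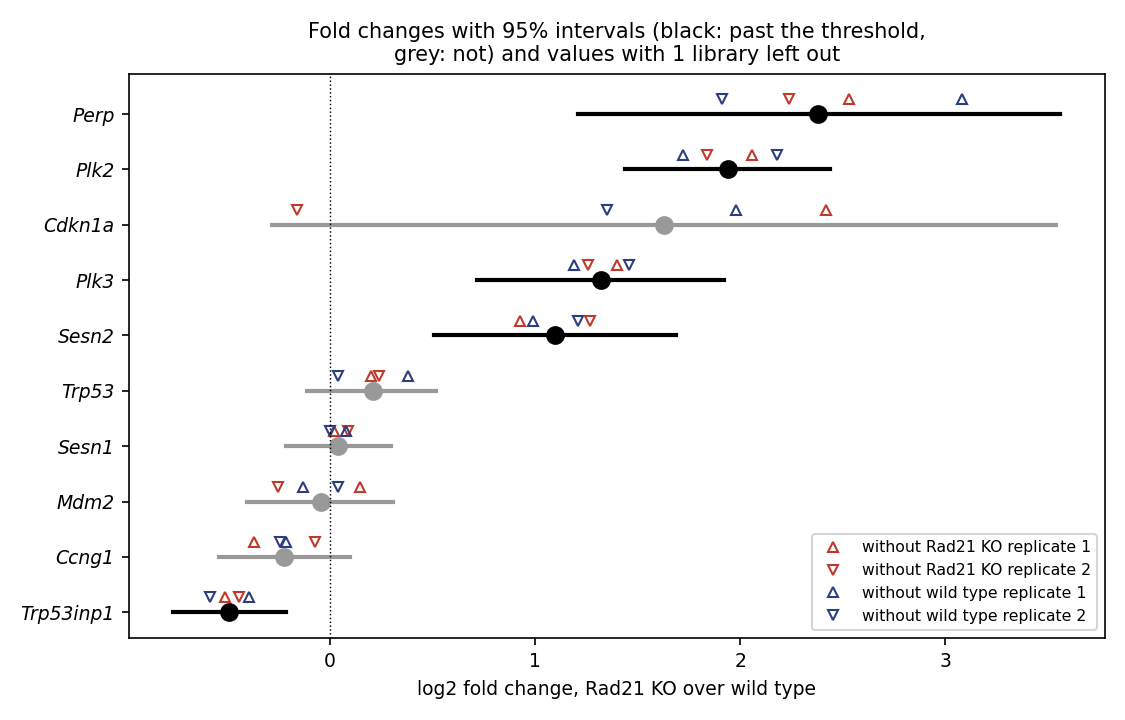
Log2 fold change of Rad21 KO over wild type for each gene, with its 95% interval from the quasi-likelihood fit (black where the adjusted p is under 0.05, grey elsewhere). Triangles give the same value with 1 library left out. Cdkn1a is the gene whose value depends most on 1 library, at -0.16 without Rad21 KO replicate 2 and 2.42 without Rad21 KO replicate 1.

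Trp53 RNA did not pass the threshold. It stood at 123 and 120 CPM in the Rad21 KO libraries, against 118 and 93.2 CPM in the wild type libraries. Both Rad21 KO values lay above both wild type values, by little over the nearer one, and groups that do not overlap were seen for 7 of the 10 genes and for 58.9% of all tested genes. The log2 fold change was 0.21 (SE 0.13, 95% interval -0.11 to 0.52), with an edgeR adjusted p = 0.36.

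Mdm2, the ubiquitin ligase that marks p53 for destruction and a direct p53 target, did not pass either. Its values were 129 and 170 CPM in the Rad21 KO libraries and 145 and 164 CPM in the wild type libraries. The wild type values fell inside the span of the Rad21 KO values. The log2 fold change was -0.05 (SE 0.15, 95% interval -0.40 to 0.31, edgeR adjusted p = 0.876), and its sign turned when wild type replicate 2 (0.04) or Rad21 KO replicate 1 (0.15) was left out.

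Cdkn1a encodes p21, the inhibitor of cyclin-dependent kinases through which p53 halts the cell cycle. It had 8 and 48 counts in the Rad21 KO libraries, or 1.10 and 6.67 CPM, against 11 and 7 counts in the wild type libraries, or 1.5 and 0.969 CPM. Rad21 KO replicate 1 lay within the wild type range and replicate 2 far above it. The log2 fold change of 1.63 (SE 0.81, 95% interval -0.28 to 3.54) did not pass (edgeR adjusted p = 0.233). Without Rad21 KO replicate 1 it was 2.42 with an edgeR adjusted p = 0.0171, and without Rad21 KO replicate 2 it was -0.16 with an edgeR adjusted p = 0.92. The 4 erythroid markers Hba-a1, Hbb-bs, Klf1 and Alas2 summed to 2.74 and 10.8 CPM in Rad21 KO replicates 1 and 2. They summed to 5.6 and 4.02 CPM in the wild type replicates. Hbb-bs, the largest part in Rad21 KO replicate 2, was at 0.274 and 6.25 CPM in Rad21 KO cells and 2.32 and 0.969 CPM in wild type cells. Alas2 was at 2.05 and 1.95 CPM in Rad21 KO cells and 1.64 and 2.63 CPM in wild type cells. Klf1 had 3 and 5 counts in Rad21 KO cells and 1 and 0 counts in wild type cells, too few to be tested. Of the 3 erythroid markers that could be tested, none passed the threshold. The 6 myeloid and dendritic markers summed to 15.7 and 20 CPM in Rad21 KO cells and 28.4 and 33.7 CPM in wild type cells, and of the 4 that could be tested Itgam fell and 3 did not pass. The part of these markers in the Cdkn1a value was not tested.

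Ccng1 encodes cyclin G1, a direct p53 target that works with a protein phosphatase on Mdm2. It stood at 64.1 and 52.3 CPM in the Rad21 KO libraries, against 68.3 and 67.2 CPM in the wild type libraries. Both Rad21 KO values were below both wild type values, with replicate 1 close to them. The log2 fold change was -0.22 (SE 0.14, 95% interval -0.54 to 0.10, edgeR adjusted p = 0.341).

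Promoter windows of 300 bases, from 250 bases before to 50 bases after an annotated start, were found in RefSeq for 8 of the 10 genes, in 10 windows (build GRCm38.p6). They are shown for known targets that did not pass the threshold (Cdkn1a at its upstream start, Ccng1, Mdm2) and for known targets that rose (Plk2, Plk3). Capitals mark the p53 half-site consensus of 10 bases, which reads the same on both strands, and any full site of 20 bases (2 adjacent half-sites) with at most 1 mismatch, and all other bases are in lower case.
Cdkn1a chr17:29090729-29091028 (+ strand): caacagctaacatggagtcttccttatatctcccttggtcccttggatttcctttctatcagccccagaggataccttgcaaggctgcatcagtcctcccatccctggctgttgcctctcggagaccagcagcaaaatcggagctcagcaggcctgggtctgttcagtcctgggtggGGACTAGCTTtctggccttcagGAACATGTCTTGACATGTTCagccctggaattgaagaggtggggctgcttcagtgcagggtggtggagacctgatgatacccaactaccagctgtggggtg
Ccng1 chr11:40755237-40755536 (- strand): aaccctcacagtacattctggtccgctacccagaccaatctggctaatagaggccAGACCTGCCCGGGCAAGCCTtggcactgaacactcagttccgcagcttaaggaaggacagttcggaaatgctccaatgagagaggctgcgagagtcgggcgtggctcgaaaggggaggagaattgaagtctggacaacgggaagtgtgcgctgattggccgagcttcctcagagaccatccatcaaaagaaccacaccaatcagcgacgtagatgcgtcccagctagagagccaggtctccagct
Mdm2 chr10:117710709-117711008 (- strand): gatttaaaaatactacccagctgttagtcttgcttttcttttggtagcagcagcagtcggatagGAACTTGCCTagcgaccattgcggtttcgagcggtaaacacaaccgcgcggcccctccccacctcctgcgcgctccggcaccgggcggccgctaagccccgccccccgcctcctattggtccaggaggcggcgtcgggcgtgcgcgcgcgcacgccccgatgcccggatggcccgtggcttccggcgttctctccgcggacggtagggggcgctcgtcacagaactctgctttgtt
Plk2 chr13:110394794-110395093 (+ strand): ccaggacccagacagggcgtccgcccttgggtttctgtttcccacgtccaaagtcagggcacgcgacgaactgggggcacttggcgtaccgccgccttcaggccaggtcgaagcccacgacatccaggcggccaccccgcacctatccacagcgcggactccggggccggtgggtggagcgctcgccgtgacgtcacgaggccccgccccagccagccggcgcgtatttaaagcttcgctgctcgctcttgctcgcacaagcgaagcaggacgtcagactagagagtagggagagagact
Plk3 chr4:117133914-117134213 (- strand): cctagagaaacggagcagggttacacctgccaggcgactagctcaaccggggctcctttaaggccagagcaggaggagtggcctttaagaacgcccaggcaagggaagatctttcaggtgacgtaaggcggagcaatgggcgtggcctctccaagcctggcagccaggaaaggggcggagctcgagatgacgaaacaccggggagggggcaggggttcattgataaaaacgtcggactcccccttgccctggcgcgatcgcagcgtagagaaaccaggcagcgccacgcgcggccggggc

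The Cdkn1a and Ccng1 windows each held a full site with 1 mismatch, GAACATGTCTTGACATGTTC starting at position -51 of the Cdkn1a window and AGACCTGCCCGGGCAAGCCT starting at position -195 of the Ccng1 window, counted from the annotated start. Such a site occurs in 0.0883% of all 32851 promoter windows searched. The Cdkn1a window also had a further half-site 12 bases before that site. Mdm2 had 1 half-site at position -186, Trp53 1 at -75 and Sesn1 1 at -173 in 1 of its windows, where 8.36% of all windows have at least 1. The windows of Plk2, Plk3 and Sesn2 and the other windows of Cdkn1a and Sesn1 held no exact half-site. A match describes the letters in the window and not binding, and known p53 sites of several of these genes lie outside such windows.

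Plk2 and Plk3 encode polo-like kinases that respond to stress, unlike Plk1, which drives mitosis. Plk2 stood at 28.8 and 33.6 CPM in the Rad21 KO libraries, against 6.83 and 9.42 CPM in the wild type libraries. Each Rad21 KO value was several times each wild type value. Its log2 fold change was 1.94 (SE 0.21, 95% interval 1.44 to 2.44, edgeR adjusted p = 0.00327), and its call held in each of the 10 alternative settings tried.

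Plk3 stood at 10.8 and 12 CPM in the Rad21 KO libraries, against 4.1 and 4.99 CPM in the wild type libraries. The groups did not overlap. Its log2 fold change was 1.32 (SE 0.25, 95% interval 0.72 to 1.92, edgeR adjusted p = 0.0199), and it missed the threshold without wild type replicate 1 (1.19) and with no filter on low counts (edgeR adjusted p = 0.0568). The gene span of Plk3 overlaps that of Tctex1d4 in RefSeq, the strand used in counting is not given, and Tctex1d4 had 1 count in each Rad21 KO library and 3 and 7 counts in the wild type libraries. Among the other polo-like kinases, named after their values were seen, Plk1 stood at 5.2 and 3.06 CPM in Rad21 KO cells and 4.78 and 5.68 CPM in wild type cells, and Plk4, which controls centriole duplication, at 21.5 and 30.3 CPM in Rad21 KO cells and 26.2 and 22.2 CPM in wild type cells. Neither passed the threshold.

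Perp encodes a membrane protein of desmosomes that also acts in p53-dependent death. It had 24 and 29 counts in the Rad21 KO libraries, or 3.28 and 4.03 CPM, against 7 and 3 counts in the wild type libraries, or 0.957 and 0.415 CPM. All 4 values are low, and the groups stand apart. The summed counts gave a ratio of 5.31 for Rad21 KO over wild type, with a 95% exact counting interval of 2.67 to 11.7 that covers counting error only. The fitted log2 fold change was 2.38 (SE 0.50, edgeR adjusted p = 0.0264). It missed the threshold without wild type replicate 2 (1.91) or Rad21 KO replicate 2 (2.24), with DESeq2 (adjusted p = 0.0703) and with no filter on low counts (edgeR adjusted p = 0.0865).

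The epithelial surface gene Epcam moved with Perp. It stood at 9.45 and 11.7 CPM in the Rad21 KO libraries and 1.5 and 0.969 CPM in the wild type libraries. The 5 markers of thymic epithelium summed to 12.2 and 13.8 CPM in Rad21 KO cells and 3.96 and 3.6 CPM in wild type cells. Epcam is among them and made up most of the Rad21 KO sums. Aire stood at 2.46 and 1.39 CPM in Rad21 KO cells and 1.23 and 1.8 CPM in wild type cells. Of these markers 2 passed the filter on low counts, Epcam passed the threshold (log2 fold change 3.08, SE 0.36, edgeR adjusted p = 0.00355), and Aire did not. The defining epithelial genes Krt5, Krt8 and Foxn1 had at most 3 counts in a Rad21 KO library and at most 5 in a wild type library. The part of these markers in the Perp value was not tested.

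Sesn1 and Sesn2 encode sestrins, proteins that restrain the growth regulator mTORC1. Sesn1 stood at 101 and 96.2 CPM in the Rad21 KO libraries and 97.8 and 93.1 CPM in the wild type libraries, groups that overlap. Its log2 fold change was 0.04 (SE 0.11, 95% interval -0.21 to 0.30, edgeR adjusted p = 0.827). Sesn2, which is also known as a target of the amino acid and ER stress response, stood at 13.8 and 11 CPM in the Rad21 KO libraries and 5.33 and 6.23 CPM in the wild type libraries. Both Rad21 KO values were above both wild type values. Its log2 fold change was 1.10 (SE 0.25, 95% interval 0.51 to 1.69, edgeR adjusted p = 0.0339), and it missed the threshold without Rad21 KO replicate 1 (0.93), wild type replicate 1 (0.99) or wild type replicate 2 (1.21). The Sesn2 call was also lost with DESeq2 (adjusted p = 0.0811) and with no filter on low counts (edgeR adjusted p = 0.084).

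Trp53inp1 encodes a stress-induced protein that works with p53 and in autophagy, and it was the member that fell. It stood at 858 and 825 CPM in the Rad21 KO libraries, against 1255 and 1101 CPM in the wild type libraries. The groups did not overlap, and the drop was small. The log2 fold change was -0.49 (SE 0.12, 95% interval -0.76 to -0.21, edgeR adjusted p = 0.0395), and it missed the threshold without either Rad21 KO replicate (-0.51 and -0.44), without wild type replicate 1 (-0.39) and with no filter on low counts (edgeR adjusted p = 0.0963). Markers of double-positive thymocytes fell beside it, with Rag1 at 3828 and 3315 CPM in Rad21 KO cells and 6197 and 5637 CPM in wild type cells. Of the 9 such markers 3 fell, 1 rose and 5 did not pass, and their part in the Trp53inp1 value was not tested. Its relative Trp53inp2, an autophagy gene, was at 119 and 145 CPM in the Rad21 KO libraries and 64.1 and 69.7 CPM in the wild type libraries, a rise with a log2 fold change of 0.98 (SE 0.13, edgeR adjusted p = 0.0063).

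**Figure D3:**
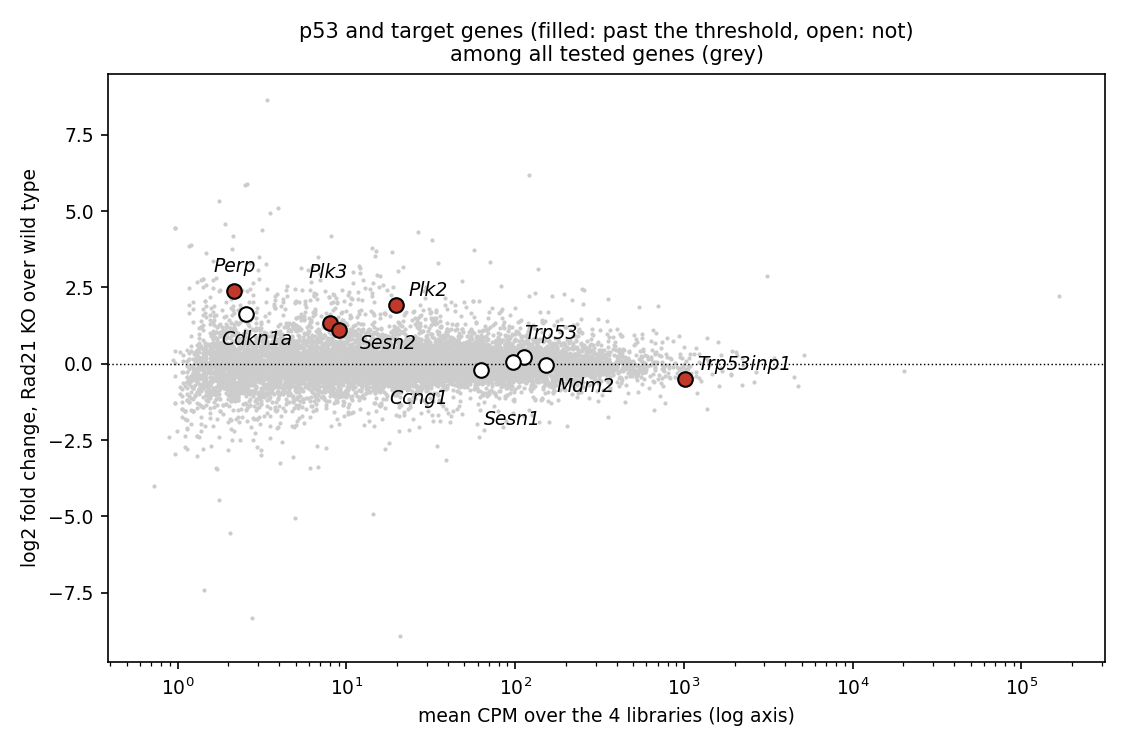
Log2 fold change of Rad21 KO over wild type against mean CPM over the 4 libraries (log axis) for all 12003 tested genes (grey), with the 10 genes marked (filled where the adjusted p is under 0.05). Perp and Cdkn1a, with the fewest counts, lie where the grey points spread widely, and the other members lie among more tightly spread points.

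Most regulators of p53 did not pass the threshold, and those that did went in both directions. Of the 25 genes listed as regulators or family members, 18 could be tested, of which 2 rose, 2 fell and 14 did not pass, or 22.2% called beside 12.8% of all tested genes, and the list's median log2 fold change was 0.10. The regulators called higher changed with the library left out, and none was higher without Rad21 KO replicate 1. Hipk2 was the gene higher without Rad21 KO replicate 2 (0.96) and Atm without wild type replicate 1 (1.06). Without wild type replicate 2 it was Crebbp (0.54), and DESeq2 gave 1 higher. Mdm4 alone was lower without Rad21 KO replicate 2 or without either wild type replicate. Mdm4, the partner of Mdm2 that blocks p53 activity, stood at 192 CPM in both Rad21 KO libraries and at 276 and 295 CPM in the wild type libraries. It fell by 0.57 on the log2 scale (SE 0.10, edgeR adjusted p = 0.0123), and it passed whichever of the 4 libraries was left out (-0.53 to -0.62). Atr, a kinase that signals DNA damage to p53, was at 44.5 and 43.4 CPM in the Rad21 KO libraries and 64.9 and 64.1 CPM in the wild type libraries.

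The fall of Atr had a log2 fold change of -0.55 (SE 0.12, edgeR adjusted p = 0.0271), and it missed the threshold without Rad21 KO replicate 2 (-0.52), wild type replicate 1 (-0.55) or wild type replicate 2 (-0.57). The acetyltransferase gene Kat5, whose product modifies p53, rose by 0.53 on the log2 scale (SE 0.13), missing the threshold when any 1 of the 4 libraries was left out (0.42 to 0.63). Crebbp, a coactivator that binds p53, rose by 0.44 (SE 0.11), missing the threshold without either Rad21 KO replicate (0.43 and 0.47) or without wild type replicate 1 (0.33). The p53 relatives Trp63 and Trp73 had at most 3 counts in any library.

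Further known p53 targets also split. Of 45 genes listed, 38 could be tested, of which 7 rose, 2 fell and 29 did not pass. This was 23.7% called, beside 12.8% of all tested genes. The list's median log2 fold change was 0.10. Abhd4, a lipid hydrolase gene, was at 16.4 and 17.5 CPM in the Rad21 KO libraries and 3.55 and 3.6 CPM in the wild type libraries, with a log2 fold change of 2.24 (SE 0.23, edgeR adjusted p = 0.00259). The tetraspanin gene Cd82 was at 73.6 and 91.9 CPM in the Rad21 KO libraries and 25.7 and 27 CPM in the wild type libraries, with a log2 fold change of 1.65 (SE 0.15, edgeR adjusted p = 0.00188). Groups were far apart for both genes.

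Pmaip1 and Bbc3, death-promoting members of the BCL2 family on this list, rose too. Pmaip1, the Noxa gene, was at 21.8 and 18.6 CPM in the Rad21 KO libraries and 5.6 and 3.88 CPM in the wild type libraries (log2 fold change 2.09, SE 0.25, edgeR adjusted p = 0.00391). Bbc3, which encodes Puma, was at 55.8 and 52.7 CPM in the Rad21 KO libraries and 27.2 and 24.8 CPM in the wild type libraries (log2 fold change 1.06, SE 0.13, edgeR adjusted p = 0.00461). Abhd4, Cd82, Pmaip1, Bbc3 and Trp53inp2 passed whichever of the 4 libraries was left out.

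The other listed targets that rose, given as chosen after their values were seen except Pcna, were Foxo3 (log2 fold change 0.70), Trp53i11 (0.52) and Pcna (0.54). Those that fell, chosen in the same way, were Apaf1 (-0.43) and Tnfaip8 (-0.73). Trp53i11 missed the threshold without wild type replicate 1 (0.50), Pcna without wild type replicate 2 (0.49) or Rad21 KO replicate 2 (0.39), and Apaf1 when any 1 of the 4 libraries was left out (-0.38 to -0.47). Gadd45a and Bax, widely used p53 targets chosen after their values were seen, stood at a log2 fold change of 0.06 (Gadd45a, SE 0.14) and -0.09 (Bax, SE 0.18), neither past the threshold.

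Of 10 listed relatives of these genes, 8 were found in the RNA-seq table and 7 passed the filter on low counts. Trp53inp2 rose, Ccng2 fell and 5 did not pass, or 28.6% called beside 12.8% of all tested genes, and the list's median log2 fold change was 0.16. Ccng2, which encodes cyclin G2, was at 157 and 153 CPM in the Rad21 KO libraries and 215 and 192 CPM in the wild type libraries, with a log2 fold change of -0.39 (SE 0.10). Its edgeR adjusted p = 0.049999 lies just inside the threshold, and it missed the threshold when any 1 of the 4 libraries was left out (-0.31 to -0.48). Cdkn1b, which encodes the p21 relative p27, was at 439 and 402 CPM in the Rad21 KO libraries and 339 and 351 CPM in the wild type libraries, and it did not pass (log2 fold change 0.29, SE 0.10, edgeR adjusted p = 0.111). Sesn3 did not pass either (0.16, SE 0.14).

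Most cell cycle genes that p21 is known to lower through the DREAM repressor complex did not pass the threshold. Of 25 genes, 24 could be tested, of which 2 rose, 2 fell and 20 did not pass. This was 16.7% called, near the 12.8% of all tested genes. The list's median log2 fold change was 0.01 (-0.09 without wild type replicate 2 and 0.22 without wild type replicate 1). The spindle protein gene Prc1 rose by 0.90 (SE 0.19), missing the threshold without wild type replicate 1 (0.71) or Rad21 KO replicate 2 (0.73), and the replication clamp gene Pcna is also on the target list above. The kinetochore genes Cenpe and Cenpf fell by 0.74 (SE 0.17) and 0.72 (SE 0.14) on the log2 scale. Cenpe missed the threshold without Rad21 KO replicate 1 (-0.58), wild type replicate 1 (-0.70) or wild type replicate 2 (-0.80), as did Cenpf without wild type replicate 1 (-0.64).

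**Figure D4:**
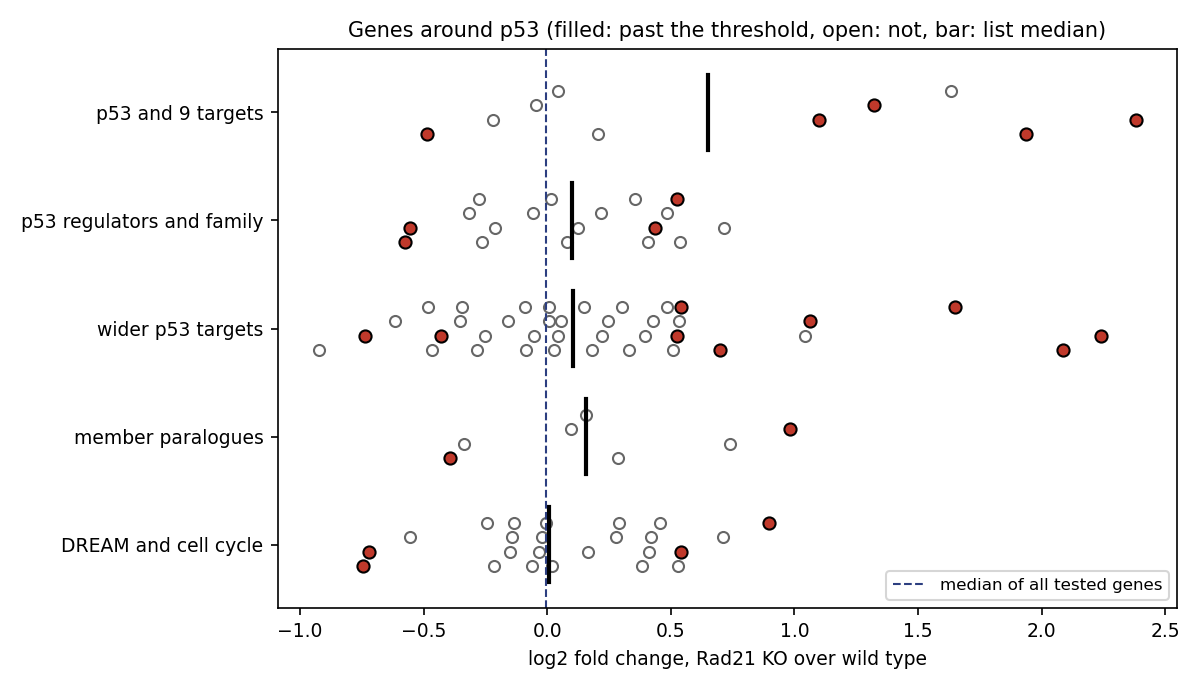
Log2 fold change of Rad21 KO over wild type for each tested gene of the p53 group and 4 related lists, 1 point a gene (filled where the adjusted p is under 0.05), with a black bar at each list's median and a dashed line at the median of all tested genes. The median for p53 and its 9 targets is 0.65 (0.16 without Rad21 KO replicate 2), and those of the related lists lie from 0.01 to 0.16.

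Genes with a pattern most like that of a member were sought over the 4 libraries among the 9822 tested genes that averaged 5 CPM or more, by the Euclidean distance between values of log2(CPM + 1) minus the wild type mean. Nearest to Plk2 were the circadian clock gene Per1 (distance 0.141), the calpain gene Capn12 (0.153) and Dusp16, a phosphatase that switches off stress MAP kinases (0.182). Per1 stood at 778 and 920 CPM in the Rad21 KO libraries and 214 and 251 CPM in the wild type libraries. Nearest to Trp53 were Tmem216 (0.0275), Pradc1 (0.0362) and Creb3 (0.0439), and nearest to Mdm2 were Suz12 (0.0376), Smim27 (0.0448) and Rufy3 (0.0465), none past the threshold. With 4 libraries this likeness describes the 2 genotypes and their spread and no more.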

How the data were processed

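RNA-seq data are estimated counts ("count equivalents") per Ensembl gene as deposited by the authors, in build mm9 per the submitters' processing notes. Libraries were made from rRNA-depleted total RNA, per the labels' protocols. Not given in the sources used here are the aligner, the counting program and whether strand was used. All values were whole and were rounded as a precaution. Symbols were found for 17342 of 17849 identifiers. Replicates differed by more than sampling noise (chi-square per degree of freedom 85.9 for Rad21 KO and 7.43 for wild type). These figures scale raw counts by library totals, with no TMM factors and with Lars2 and Gm15564 included. They therefore also hold the difference in composition between the Rad21 KO libraries and do not measure the spread of a typical gene.

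Genotypes were compared with edgeR 4.0.16 under R 4.3.3 (filter filterByExpr, TMM, quasi-likelihood test of genotype, no block, Benjamini-Hochberg over 12003 genes, threshold 0.05). The SE is the log2 fold change divided by the square root of F. Alternatives used DESeq2 1.42.0 and limma 3.58.1. On simulated counts with 11940 genes tested, edgeR found 73 of 100 planted 2-fold changes and 100 of 100 planted 4-fold changes, with 8 of 181 calls unplanted. Changes were planted only in genes averaging at least 5 CPM, above the means of Perp (2.17 CPM) and Cdkn1a (2.56 CPM). The same dispersion was used for every gene and no shift in library composition was simulated, so these rates need not hold for the real data. A count of 3, the floor, is 0.41 to 0.417 CPM.

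The genes and lists were chosen with earlier results of these data known. Named genes are the 10 members, Rad21 and up to 4 per list (largest called changes, then most abundant), and others, cell type markers included, were named after their values were seen. One marker gene is not reported here. Promoter windows are from RefSeq. Peak lists and Hi-C libraries were not used here, since peaks are in mm9 and the annotation at hand is GRCm38.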

Additional observations from a re-analysis of the deposited data

How the results depend on the processing

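Each comparison was recomputed under 10 alternatives. With 1 library left out, the lone library of its genotype is assumed to vary like the other pair. Of 100 values for the 10 genes, 78 kept their direction and side of the threshold, 18 kept their direction and lost the call, 1 gained it (Cdkn1a, 2.42 without Rad21 KO replicate 1) and 3 changed sign, which were Mdm2 (0.15 without Rad21 KO replicate 1, 0.04 without wild type replicate 2, within a range of -0.25 to 0.15) and Cdkn1a (-0.16 without Rad21 KO replicate 2). RLE size factors, limma-voom and leaving out Lars2 and Gm15564 changed no call among the 10 genes.

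With no filter on low counts, 17003 genes entered the adjustment, and calls moved to 1 higher and 0 lower among the 10 genes, 285 and 148 among all genes, 0 and 1 among p53 regulators, 0 lower among further targets, 0 lower among relatives, and 0 and 0 among cell cycle genes. DESeq2 gave 2 higher among the 10 genes (Perp and Sesn2 lost), 1 regulator higher, 1 further target lower, 0 relatives lower and 1 cell cycle gene lower. RLE size factors and limma-voom each gave 0 relatives lower.

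Replicates share numbers 1 and 2 across genotypes, and the labels do not say whether libraries with the same number were handled together. Differences between replicates correlated across genes by r = 0.0385, which cannot exclude such a pairing. With the replicate block, 2 of the 10 genes were higher and 0 lower (Perp, Sesn2 and Trp53inp1 lost), and 381 of all genes were lower (621 without the block). The block gave 0 higher and 1 lower regulator, 1 lower further target, 0 lower relatives, and 1 higher and 1 lower cell cycle gene. The cause of these shifts was not tested.

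Leaving out 1 library gave 2 to 4 higher and 0 to 1 lower of the 10 genes, 574 to 880 higher and 373 to 558 lower of all genes, 0 to 1 higher and 1 to 2 lower regulators, 1 to 2 lower further targets, 0 lower relatives, and 0 to 2 higher and 0 to 3 lower cell cycle genes. The lowest counts over all genes came without wild type replicate 2. Depth limits Perp and Cdkn1a most, with under 50 counts in each library. The alternatives for peaks at start sites were not run, since no peak comparison was made.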
